A study of Arabidopsis thaliana with 4 samples.

Results

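Flavonoids are phenolic pigments and sunscreens made from phenylalanine, and flavonols are the class that accumulates in Arabidopsis leaves. The genes described here are 10 loci of that route, chosen by locus identifier: CHS (AT5G13930), TT5 (AT3G55120), CHIL (AT5G05270), F3H (AT3G51240), TT7 (AT5G07990), FLS1 (AT5G08640), UGT78D2 (AT5G17050), DFR (AT5G42800), MYB12 (AT2G47460) and MYB111 (AT5G49330). All 10 were found among the 33602 gene models of the series. RNA came from aerial organs of soil-grown plants at Boyes stage 1.09, kept at 18 to 21 °C under light of at most 90 µE per square metre and second, with no treatment. One group was the knock-out otp90, which the labels give as the line SM_3_29659, and the other the wild type Col-0, which shares every other label. Each genotype had 2 libraries, numbered 1 and 2 in the titles. The labels state neither what the number marks nor whether the libraries stem from different plants, and the p-values below measure only the spread among the libraries, which could be technical. The knock-out is 1 line, and no locus is named OTP90 in the annotation used here, so the labels were not checked against the targeted gene.

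In the pathway, CHS (chalcone synthase) joins malonyl units to a coumaroyl starter, and TT5 (chalcone isomerase) closes the ring of the product. CHIL has the isomerase fold without its catalysis and assists CHS. F3H and TT7 add hydroxyl groups, FLS1 (flavonol synthase) and DFR (dihydroflavonol reductase) draw on the same substrates for flavonols and anthocyanins, and UGT78D2 adds glucose to both classes. MYB12 and MYB111 are R2R3-MYB factors that switch on the early genes, and the route is known for its response to light.

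The stretches upstream of the start codons are shown first, because light and MYB control of this route is known to act there. Whether a motif goes with a change between libraries was not tested. Each is 30 bases, read 5′ to 3′ along the gene from RefSeq's TAIR10.1, and capitals mark motif matches. The searched motifs were the G-box CACGTG, its core ACGT, which every G-box contains, and the AC elements ACCTACC (AC-I), ACCAACC (AC-II) and ACCTAAC (AC-III), on both strands over 500 bases. The first 4 lines below carry an AC element, the DFR line carries an AC-II match between a pair of G-boxes, and the FLS1 line carries a G-box core.
CHS, chr5:4488607-4488636, plus strand: ccgtccatctaACCTACCacactctcatct
CHIL, chr5:1563337-1563366, plus strand: aaaattatgttACCTACCaccagtccctgg
F3H, chr3:19025255-19025284, plus strand: agtagtaccgtGGTAGGTagctagcgacct
UGT78D2, chr5:5609518-5609547, minus strand: aagagatcggtACCAACCacgaaacacgag
DFR, chr5:17166017-17166046, minus strand: CACGTGcttctccGGTTGGTactCACGTGa
FLS1, chr5:2803897-2803926, plus strand: ccaagatttcgccACGTcctcacttcctcc

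The printed AC element began 144 bases before the start codon in CHS, in CHIL and in UGT78D2, and 143 bases before it in F3H, where it lay on the opposite strand. In these 4 genes the printed element fell between the annotated gene start and the start codon. CHS and CHIL each held one more AC element, an AC-III match that began 66 bases before the start codon in CHS and 316 bases before it, outside the annotated gene, in CHIL. The AC-I match of TT5 began 101 bases before its start codon. AC-I was present in 4 of the 10 windows (CHS, TT5, CHIL and F3H), against 2.16% of the windows of 27443 protein-coding genes. A G-box was present in 5 of 10 (TT5, CHIL, F3H, DFR and MYB12), against 9.34%, and its core in 8 of 10, against 62.6%. Any AC element was present in 6 of 10, against 11.6%. No searched motif lay in the TT7 window, and none but the core lay in those of FLS1 and MYB111. A match is a description of the letters, not of binding.

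**Figure D1:**
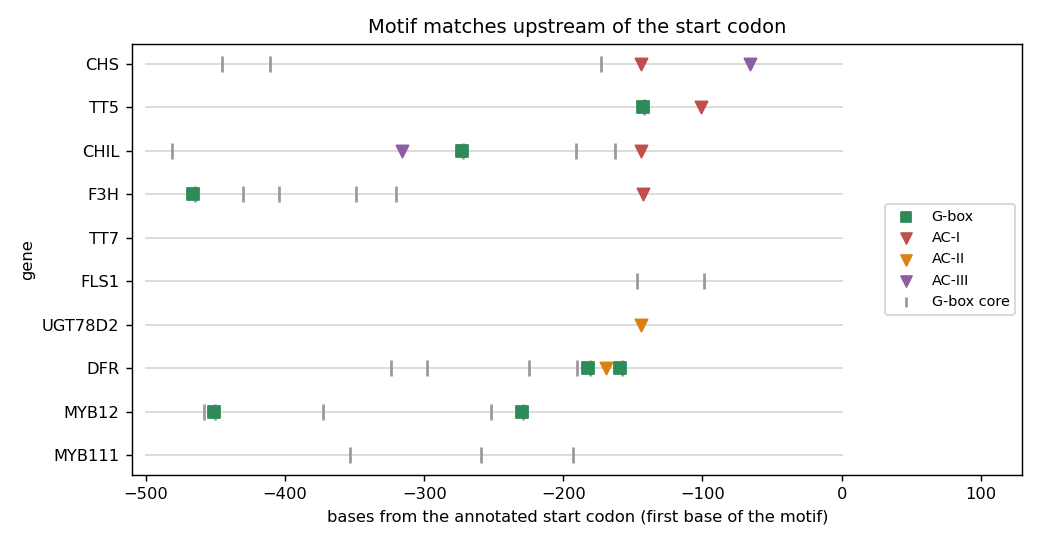
Positions of motif matches in the 500 bases before the annotated start codon of each gene (x axis, bases from the start codon; y axis, genes). Squares are G-boxes, triangles AC elements and ticks G-box cores; 1 AC element each of CHS, CHIL, F3H and UGT78D2 lies 143 to 144 bases before the start codon, and the further AC-III matches of CHS and CHIL lie at 66 and 316 bases.

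Library totals without rRNA were 1374590 and 1750669 counts in otp90 numbers 1 and 2, and 2503502 and 1723267 counts in Col-0 numbers 1 and 2. Levels below are counts per 1000000 of these totals (CPM). The 10 genes together had 155 and 612 counts in otp90 numbers 1 and 2 and 138 and 733 counts in Col-0, so most members were thinly covered. The libraries of each genotype differed more than counting allows, at 14.4 (otp90) and 23.7 (Col-0) times the chi-square of pure sampling, and earlier work on these data had shown that they differ by number more than by genotype. Each result is therefore given by number as well as by genotype.

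Per length, CHS had the highest level of the 10, at 79.6 ± 70.2 counts per kilobase and 1000000 (RPKM; SD over all 4 libraries). UGT78D2 followed at 27.5 ± 12.8, FLS1 at 19.4 ± 17.9, CHIL at 18.4 ± 17.4 and F3H at 9.49 ± 7.35 on the same scale. MYB111 was at 5.92 ± 5.98, DFR at 2.96 ± 3.48, TT7 at 1.51 ± 0.869, TT5 at 1.35 ± 1.42 and MYB12 at 0.73 ± 0.653. No neighbours in this order differed by more than their spread, and the order was not the same in every library. In otp90 number 2, UGT78D2 (31.1 RPKM) stood below CHIL (40.1) and FLS1 (32.1), and in otp90 number 1, FLS1 (3.27) stood below F3H (6.27) and MYB111 (3.33). CHS led UGT78D2 by little in Col-0 number 1, where both genes had 53 counts and stood at 14.2 and 13.9 RPKM. TT5, which acts directly after CHS, held 9 counts in all 4 libraries against 822 for CHS, 1.69% of its level per length.

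**Figure D2:**
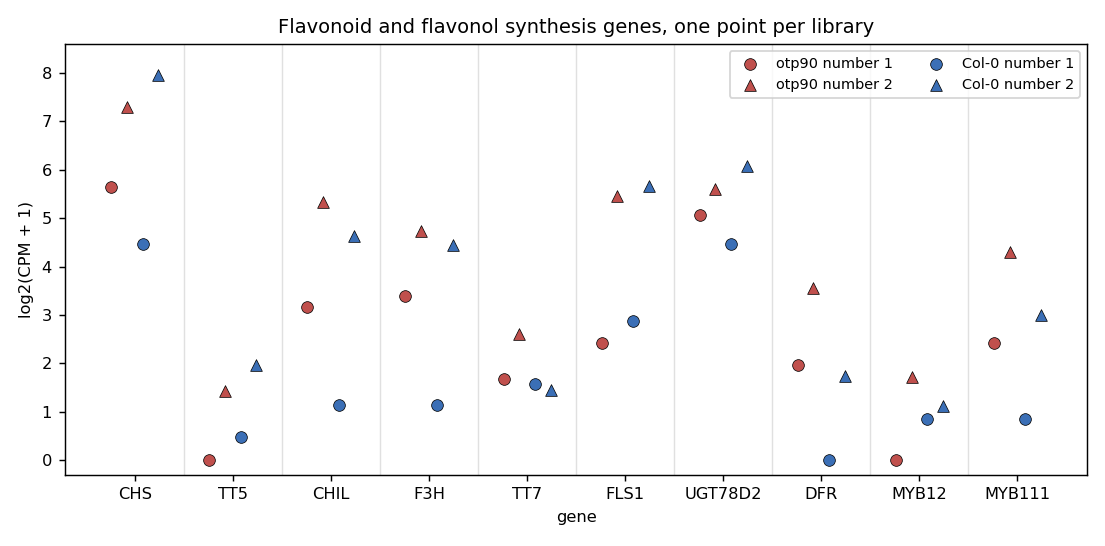
Level of each gene in each library as log2(CPM + 1) (y axis), by gene (x axis); colour gives the genotype and circles and triangles the numbers 1 and 2. In 8 of 10 genes both triangles lie above both circles, against 19.5% of the gene models with a count, the exceptions being TT7 and DFR. TT5 and MYB12 are among the 8 at 0 to 5 counts per library.

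At the entry of the pathway, CHS had 67 and 272 counts in otp90 numbers 1 and 2 (48.7 and 155 CPM), and 53 and 430 counts in Col-0 (21.2 and 249.5 CPM). Both number 2 libraries were high and both number 1 libraries low, while the genotypes overlapped. CHIL had 11 and 69 counts in otp90 (8.002 and 39.4 CPM) and 3 and 41 in Col-0 (1.20 and 23.8 CPM), with the same order by number. TT5 had 0 and 3 counts in otp90 and 1 and 5 counts in Col-0. Its number 2 libraries were again the higher ones, but at counts where a difference was not detectable.

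F3H had 13 and 45 counts in otp90 (9.46 and 25.7 CPM) and 3 and 36 in Col-0 (1.20 and 20.9 CPM). The number 2 libraries lay above the number 1 libraries, and the genotypes overlapped. TT7, which sets the quercetin type of flavonol, had 3 and 9 counts in otp90 and 5 and 3 in Col-0, and its numbers overlapped.

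FLS1, the last step to flavonols, had 6 and 75 counts in otp90 (4.36 and 42.8 CPM) and 16 and 86 in Col-0 (6.39 and 49.9 CPM). The genotypes lay close together within each number, and the numbers were far apart. UGT78D2 had 45 and 83 counts in otp90 (32.7 and 47.4 CPM) and 53 and 114 in Col-0 (21.2 and 66.2 CPM), the flattest profile among the genes with over 100 counts. DFR, the first step committed to anthocyanins, had 4 and 19 counts in otp90 and 0 and 4 in Col-0. Both otp90 libraries of DFR lay above both Col-0 libraries in CPM, as they did for TT7 and no other member. In 25.3% of the 28766 gene models with a count the genotypes did not overlap, in either direction. DFR had 4 counts in both otp90 number 1 and Col-0 number 2, which are 2.91 and 2.32 CPM.

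Of the regulators, MYB111 had 6 and 33 counts in otp90 (4.36 and 18.9 CPM) and 2 and 12 in Col-0 (0.799 and 6.96 CPM), so the number 2 libraries were higher in both genotypes. MYB12 had 0 and 4 counts in otp90 and 2 in each Col-0 library, too few to show a difference.

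The comparison of number 2 with number 1 asked how far these genes moved between the libraries of each genotype. Each number has 1 otp90 and 1 Col-0 library, so an SD by number includes the genotype difference. With genotype as a term, what remains of a gene's spread is how far its change between numbers differed by genotype. FLS1 rose from 5.38 ± 1.43 CPM in number 1 to 46.4 ± 4.995 CPM in number 2 (SD, n = 2 each), which is 2.93 on the log2 scale (SE 0.57). It was called by edgeR's quasi-likelihood test with genotype as a term (adjusted p = 0.0219 by Benjamini-Hochberg over the 11938 genes tested), as 1 of 4 genes called higher in number 2, 0.0335% of those tested. In either direction 0.804% of genes were called, and FLS1 was called under 12 of 13 alternatives and not by limma voom (adjusted p = 0.0635). CHS went from 35.0 ± 19.5 to 202 ± 66.6 CPM, or by 2.45 on the log2 scale (SE 0.55), and missed the threshold (adjusted p = 0.0539 by edgeR). It was called under 10 of the 13 alternatives, which refit the same libraries. The 10 include every fit without a genotype term, among them those with a library left out. CHS was not called with DESeq2 size factors, scaled on nuclear genes or with rRNA genes kept (adjusted p = 0.0676, 0.106 and 0.0584 by edgeR). CHIL averaged 4.6004 ± 4.81 CPM in number 1 and 31.6 ± 11.05 CPM in number 2, with a log2 difference of 2.93 (SE 0.70; adjusted p = 0.0813 by edgeR), and was called under 5 of 13.

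F3H averaged 5.33 ± 5.84 and 23.3 ± 3.40 CPM, with a log2 difference of 2.36 (SE 0.77; adjusted p = 0.267 by edgeR). UGT78D2 averaged 27.0 ± 8.18 and 56.8 ± 13.3 CPM, with a log2 difference of 0.93 (95% interval -0.12 to 1.99). MYB111 had a log2 difference of 2.30 (SE 0.84; adjusted p = 0.361 by edgeR). F3H and MYB111 were called in no alternative that kept all 4 libraries. Without otp90 number 1 their log2 differences were 4.14 and 3.86. That fit has no genotype term and leaves Col-0 as the only number 1 library, with 3 counts of F3H and 2 of MYB111. Genotype and number are thus partly mixed in it. The remaining members, TT5, TT7, DFR and MYB12, had too few counts to be tested. The count filter asked for 5.76 CPM in at least 2 libraries. MYB111 reached it in its number 2 libraries alone, and FLS1, CHIL and F3H in both number 2 libraries and 1 number 1 library, so these 4 were tested because number 2 was high and the filter favoured a positive value. FLS1 was also called with no filter. The 6 tested members had a median of 2.40, against 0.03 over all 11938 genes tested, and the filter had a part in the first. Both number 2 libraries lay above both number 1 libraries in 8 of the 10 members, against 19.5% of the 28766 gene models with a count. TT5 and MYB12 are among the 8 at 0 to 5 counts per library. The 6 tested members all had this order, which the filter favoured, against 27.7% of the genes tested. In bulk RNA, more cells of a type and more RNA per cell cannot be told apart.

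Within otp90, the number 2 library stood above the number 1 library by 9.81-fold for FLS1 (95% exact counting interval 4.30 to 27.6), 4.93-fold for CHIL (2.59 to 10.3) and 3.19-fold for CHS (2.43 to 4.23). Within Col-0 the same ratios were 7.81-fold for FLS1 (4.55 to 14.3), 19.9-fold for CHIL (6.33 to 100.2) and 11.8-fold for CHS (8.85 to 15.99). The intervals of the genotypes overlapped for FLS1 and CHIL and did not overlap for CHS. F3H was 2.72-fold higher in otp90 (1.44 to 5.49) and 17.4-fold higher in Col-0 (5.51 to 88.5). MYB111 was 4.32-fold higher in otp90 (1.79 to 12.6) and 8.72-fold higher in Col-0 (1.94 to 80.2). UGT78D2 was 1.45-fold higher in otp90 (0.996 to 2.13) and 3.12-fold higher in Col-0 (2.24 to 4.41). The intervals of F3H and UGT78D2 did not overlap between the genotypes either, those of F3H narrowly, and those of MYB111 did. DFR was 3.73-fold higher in otp90 (1.24 to 15.1). In Col-0 it had 0 counts in number 1 and 4 in number 2. With the 0 set to 3 counts the ratio was 1.94, without an interval for the counting error of the 4. These intervals compare single libraries and cover counting error only, and whether the change between numbers differed by genotype was not tested, since each combination had 1 library.

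**Figure D3:**
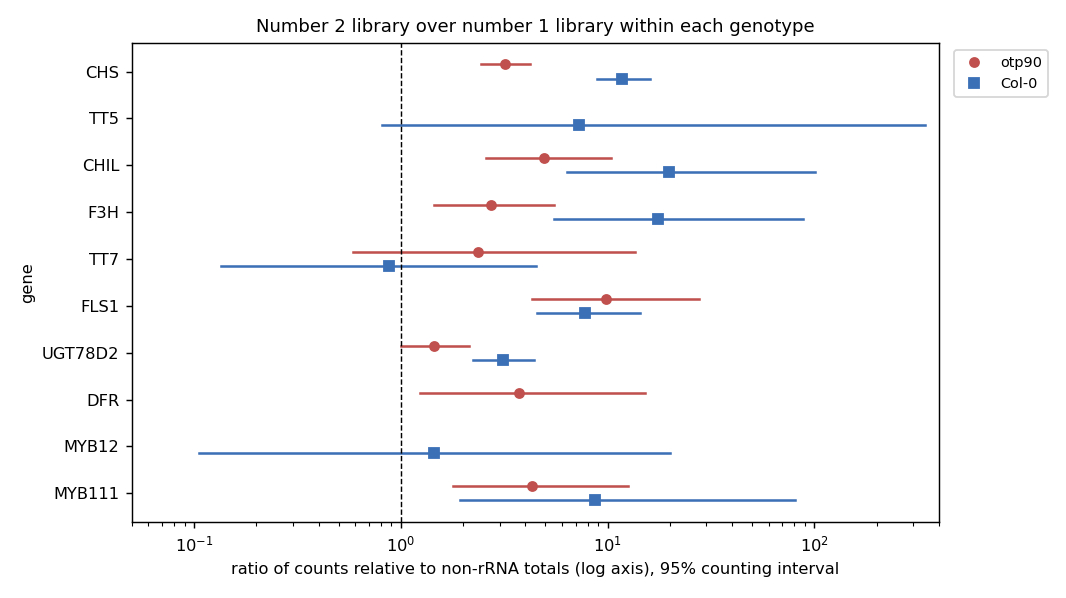
Ratio of the number 2 to the number 1 library in otp90 (circles) and Col-0 (squares), with 95% exact counting intervals (x axis, log scale), by gene (y axis). CHS, CHIL, F3H, FLS1 and MYB111 have intervals above 1 in both genotypes; TT5, DFR and MYB12 lack a point where a library had 0 counts.

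As a share of all non-rRNA counts, the 10 genes together took 113 per 1000000 in otp90 number 1 (95% Wilson interval 96.4 to 132) and 55.1 per 1000000 in Col-0 number 1 (46.7 to 65.1). In number 2 they took 349.6 per 1000000 in otp90 (323 to 378) and 425 per 1000000 in Col-0 (396 to 457). The number 2 mean exceeded the number 1 mean by 303.5 per 1000000 (exact two-sided permutation p = 0.333, the smallest that 2 against 2 libraries allow). CHS supplied 43.2% and 44.4% of these counts in otp90 numbers 1 and 2 and 38.4% and 58.7% in Col-0.

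The series was set up to compare otp90 with the wild type, and in that comparison no member passed the test. CHS averaged 102 ± 75.4 CPM over the otp90 libraries and 135 ± 161 CPM over those of Col-0 (SD, n = 2 each), and its log2 difference was -0.28 (95% interval -2.38 to 1.83). FLS1 averaged 23.6 ± 27.2 and 28.1 ± 30.8 CPM, with a log2 difference of -0.12 (-2.42 to 2.18). UGT78D2 averaged 40.1 ± 10.4 and 43.7 ± 31.8 CPM, with a log2 difference of 0.02 (-1.28 to 1.32). CHIL averaged 23.7 ± 22.2 and 12.5 ± 15.98 CPM, with a log2 difference of 1.09 (-1.37 to 3.54). The log2 difference was 0.85 for F3H (-1.46 to 3.15) and 1.75 for MYB111 (-0.58 to 4.09). Each of these intervals holds changes of over 2-fold, so the data do not show that the genotypes are alike. Over all 11938 genes edgeR called 0, which is 0%, with 168 at an unadjusted p under 0.05 (1.41%), and 0 were also called by DESeq2, limma voom and the likelihood ratio test. The 6 tested members were positive in 4 with a median of 0.43, against 5870 of 11938 and a median of -0.01 over all genes.

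Among the members, CHIL alone was called in a fit with a library left out, higher in otp90 without Col-0 number 2 (log2 fold change 4.26, adjusted p = 0.0303 by edgeR). That fit leaves Col-0 with number 1 alone, so its genotype and number effects cannot be told apart. The summed share was 231 ± 167 per 1000000 for otp90 against 240.2 ± 262 for Col-0 (SD, n = 2 each; exact two-sided permutation p = 1).

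Within number 1, otp90 stood above Col-0 by 2.30-fold for CHS (95% exact counting interval 1.58 to 3.37), 6.68-fold for CHIL (1.76 to 37.3), 7.89-fold for F3H (2.17 to 43.2) and 1.55-fold for UGT78D2 (1.02 to 2.35). Within number 2, CHS was lower in otp90, at 0.623 of its Col-0 level (0.533 to 0.726), and UGT78D2 was at 0.717 (0.534 to 0.959). CHIL stayed above Col-0 in number 2 by 1.66-fold (1.11 to 2.50), while F3H had a ratio of 1.23 (0.776 to 1.96). MYB111 was 2.71-fold above Col-0 in number 2 (1.36 to 5.76) and had a ratio of 5.46 in number 1 (0.977 to 55.4). FLS1 had a ratio of 0.683 in number 1 (0.219 to 1.84) and 0.858 in number 2 (0.621 to 1.18), so its genotype difference was not detectable at this depth in either. DFR was 4.68-fold higher in otp90 in number 2 (1.55 to 18.9). In number 1 the wild-type library held 0 counts of DFR. Setting that 0 to 3 counts gave a ratio of 2.43, with no interval for the counting error of the 4 otp90 counts. TT7 and DFR, both with too few counts to be tested, were the members whose genotypes did not overlap. They are 2 of 10, against 25.3% of the 28766 gene models with a count, and among the 6 tested members there were 0, against 25.7% of the genes tested.

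**Figure D4:**
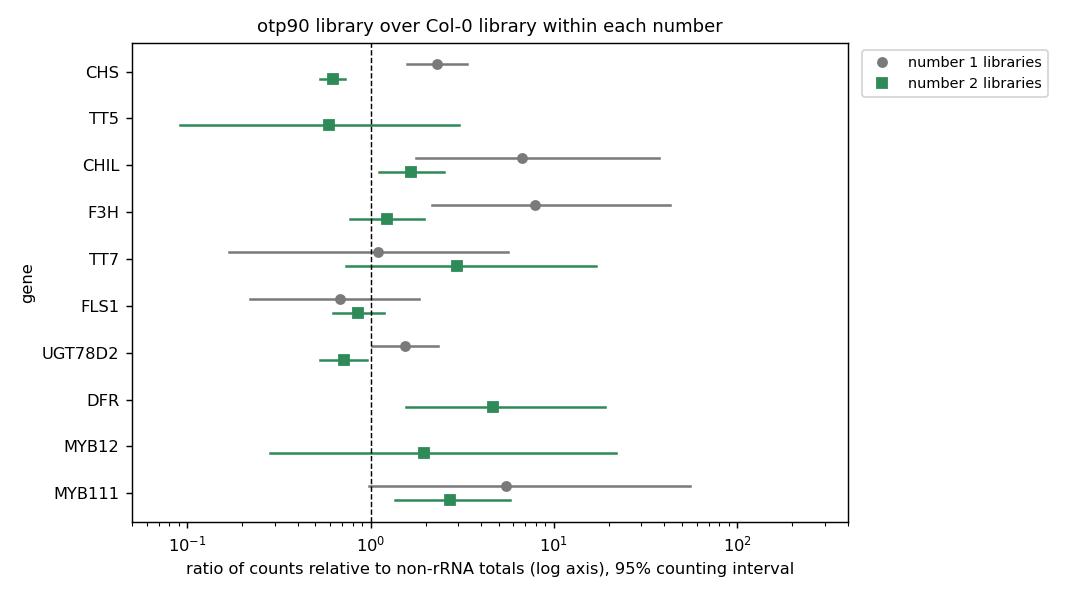
Ratio of the otp90 to the Col-0 library within number 1 (circles) and number 2 (squares), with 95% exact counting intervals (x axis, log scale), by gene (y axis). CHS and UGT78D2 lie above 1 in number 1 and below 1 in number 2, CHIL lies above 1 in both, and the intervals of FLS1 hold 1 in both.

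Around the members, 60 further genes of the route and its control were taken in 7 lists. Of the 8 general phenylpropanoid genes, which supply the coumaroyl starter, all 8 were tested and 0 passed between numbers. Their values were positive in 7, against 6158 of all 11938 genes tested, with a median log2 fold change of 0.88. PAL1, a phenylalanine ammonia-lyase gene at the first step, was at 1.32 (SE 0.44), the coumarate ligase gene 4CL1 at 1.51 (SE 0.55) and 4CL3, its relative tied to flavonoids, at 1.85 (SE 0.74). 4CL3 and 4CL2 passed the count filter through their number 2 libraries alone, so their positive values, 2 of the 7, were built in. Of the 11 genes for flavonol decoration and the FLS homologues, 4 were tested, all with positive values, with 0 passing and a median of 1.68. AT1G06000, annotated as a flavonol rhamnosyltransferase gene, had 22 and 115 counts in otp90 numbers 1 and 2 and 28 and 116 in Col-0. Both number 2 libraries were high, and its log2 fold change of 2.15 (SE 0.50) narrowly missed the threshold (adjusted p = 0.0674 by edgeR). The flavonol rhamnosyltransferase gene UGT78D1 was at 1.74 (SE 0.45), and RHM1, which makes the rhamnose donor, at 1.63 (SE 0.45). The FLS homologues FLS2 to FLS6 had 3 to 18 counts each over all 4 libraries and were not tested.

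None of the 9 genes of the anthocyanin branch after DFR had enough counts to be tested. Their summed level was 7.27 and 32.6 CPM in otp90 numbers 1 and 2 and 10.8 and 23.8 CPM in Col-0, and LDOX, the dioxygenase after DFR, had 2 and 15 counts in otp90 and 4 in each Col-0 library. Of 5 proanthocyanidin genes 1 was tested, TT15 at -0.33 (SE 0.55), and of 10 MYB, bHLH and WD40 regulators 1 was tested, the WD40 gene TTG1 at -0.91 (SE 0.81). MYB11, the third flavonol MYB gene, and MYB114 had 0 counts in every library.

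Among 9 genes listed as repressors, 7 were tested and 1 passed, as lower in number 2, with a list median of -0.72. Over all genes tested 92 were called lower in number 2 (0.771%), against the 4 called higher. That gene was AT1G23390, annotated as a Kelch repeat-containing F-box family gene. It had 560 and 57 counts in otp90 numbers 1 and 2 (407 and 32.6 CPM) and 627 and 45 in Col-0 (250.4 and 26.1 CPM). Both number 2 libraries were low, opposite to CHS and FLS1, and the gene fell by 3.62 on the log2 scale (SE 0.49; adjusted p = 0.00144 by edgeR). The call stood under all 13 alternatives, with values from -4.03 to -3.16. MYBL2, a small MYB repressor of the anthocyanin genes, had 18 and 1 counts in otp90 and 32 and 2 in Col-0, with a log2 difference of -3.96 (SE 0.95; adjusted p = 0.081 by edgeR), while MYB4, a repressor of phenylpropanoid genes, was at 2.18 (SE 0.81). MYBL2 reached the filter level in its number 1 libraries alone, so its negative value was built in. Of 8 light and UV-B regulators 6 were tested and 0 passed, 5 positive with a median of 0.88. Over all 11938 genes tested 6158 were positive. RUP2, at 0.67 (SE 0.82), reached the filter level in its number 2 libraries alone, so its positive value was built in. HY5, the bZIP factor that binds G-boxes of the pathway, had 10 and 37 counts in otp90 and 3 and 27 in Col-0, with a log2 difference of 2.26 (SE 0.78), and COP1 was at 1.09 (SE 0.60). BBX22 was at -1.75 (SE 0.81), a negative value that was built in, since it too reached the filter level in its number 1 libraries alone. HY5 and MYB4 reached it in both number 2 libraries and 1 number 1 library. Between genotypes 0 genes of these 7 lists passed.

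**Figure D5:**
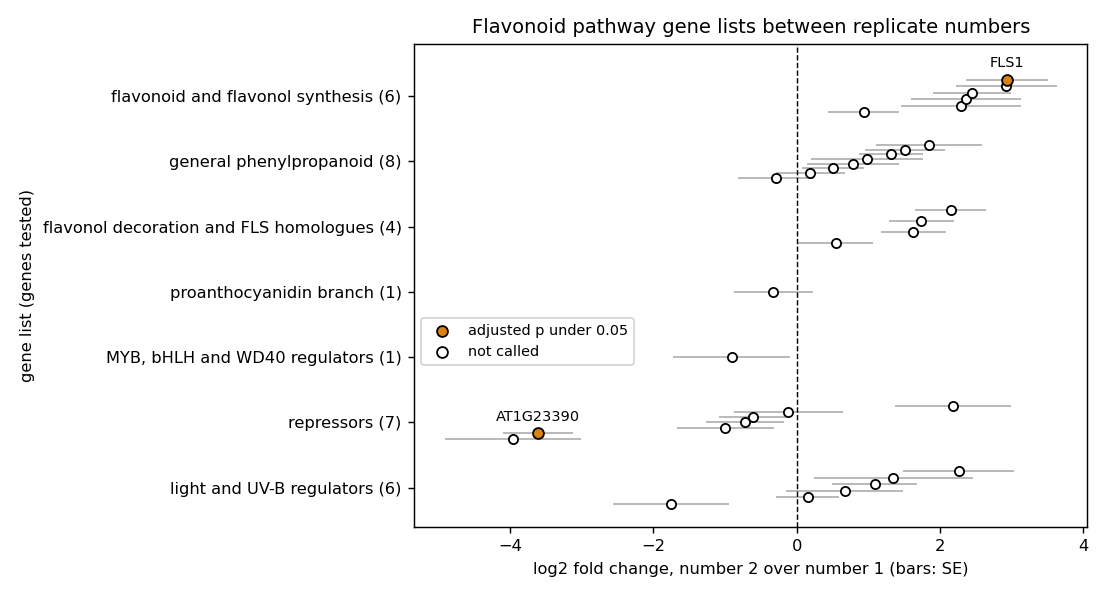
Log2 fold change of number 2 over number 1 (x axis; bars are SE) for the tested genes of each list (y axis, number tested in parentheses), with filled points for genes called by edgeR. FLS1 and AT1G23390 are the called genes, on opposite sides of 0, at 2.93 and -3.62.

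The genes most like CHS across the 4 libraries were sought by the root mean square difference of log2 CPM centred on each gene's mean. The closest of the 11932 tested genes outside the members were SPA4 (AT1G53090; difference 0.14), a light signalling gene whose product acts with COP1, AT2G15020 (0.17), the lipase-like gene TLL1 (AT1G45201; 0.23), the berberine bridge family gene AT5G44410 (0.23) and AT5G09300 (0.25). SPA4 had 7 and 40 counts in otp90 numbers 1 and 2 and 5 and 51 in Col-0, and TLL1 had 43 and 229, and 47 and 268. AT2G15020 and AT5G09300 each had 2 counts in otp90 number 1 and 0 in Col-0 number 1. These genes and SPA4 lay under the filter level in both number 1 libraries. They were tested because number 2 was high, which is the pattern sought. F3H was the nearest member at 0.52, with 83 non-members nearer to CHS. For FLS1 the closest were AT1G45010 (0.22), AT5G01260 (0.23), the chloroplast envelope permease gene AT5G19500 (0.26), AT5G55640 (0.27) and AT4G09970 (0.28), each with 1 to 4 counts or none in the number 1 libraries. CHS was the nearest member at 0.63, with 87 non-members nearer to FLS1. The genes named as closest to FLS1 likewise passed the filter through their number 2 libraries alone. Likeness over 4 libraries says nothing of shared control.

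Tissue markers were set beside the members because flavonols lie mainly in the epidermis. The 6 epidermis genes summed to 645 and 888 CPM in otp90 numbers 1 and 2 and 599 and 955 CPM in Col-0. LTP1 alone gave 344 and 590 CPM in otp90 and 341 and 496 CPM in Col-0. Both number 2 libraries lay above both number 1 libraries in 4 of 6, against 27.7% of the genes tested. The 6 had a median log2 fold change of 0.48 between numbers, against 0.03 over all genes tested, with PDF1 at -0.41 and KCS6 at -0.09. The 7 leaf genes summed to 18734 and 14454 CPM in otp90 and 11737 and 21885 CPM in Col-0, so the aerial label was met. The 8 flower genes summed to 7.99 to 11.6 CPM and the 8 seed genes to 5.09 to 12.0 CPM, with SESA3 at 0 in every library. The 8 root genes summed to 37.8 and 97.1 CPM in otp90 and 25.2 and 45.3 CPM in Col-0. Of this, PYK10 gave 21.8 and 92.0 CPM in otp90 and 17.2 and 33.1 CPM in Col-0, and it was the one root gene with enough counts to be tested. No gene of these lists passed in either comparison. The epidermis sum and PYK10 were higher in number 2 in both genotypes, but not every gene of either list was. KCS6 was lower in number 2 in otp90 (148 and 89.7 CPM in numbers 1 and 2) and PDF1 in Col-0 (17.2 and 6.38 CPM). The root gene COBL9, at 4 to 11 counts per library, was lower in number 2 in both genotypes. The part of these genes in the result was not tested.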

How the data were processed

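The authors deposited raw read counts for each gene model, together with its length, and used sam2pkm, per the file headers. Before counting, reads with tied top alignment scores, 79.9% to 87.0% of those mapped, were discarded, per the file headers, so genes with near-identical copies are undercounted. The submitters' processing notes name TAIR10 as the build; the aligner and the strand setting of the counting are not given in the sources used. Per the labels' protocols, libraries were stranded and rRNA-depleted. In the annotation CHS overlaps AT5G13940 and F3H overlaps AT3G51238, both on the other strand, which had 1 to 3 counts per library. Symbols, products and upstream sequences came from RefSeq's TAIR10.1. No file coordinates were used, and all positions are of that build.

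The 15 rRNA gene models, 4.96% to 7.69% of counts, were left out. Testing used edgeR 4.0.16 (R 4.3.3): filterByExpr by genotype with a minimum count of 10 left 11938 genes, libraries were scaled by TMM, and two-sided quasi-likelihood tests compared genotypes without a replicate block and numbers with genotype as a term. P-values were adjusted by Benjamini-Hochberg over all genes tested and called at 0.05. The test was checked on simulated data. The SE was taken from the fold change and the F statistic. CPM and RPKM were computed on non-rRNA totals without TMM. Ratios of 2 libraries have exact binomial intervals and shares Wilson intervals, both at 95% and for counting error only. For the DFR ratios against a library with 0 counts, the 0 was set to 3 and no interval was given. Profiles used TMM-scaled log2 CPM with a prior count of 2. Alternatives used DESeq2 1.42.0, limma 3.58.1 voom, the likelihood ratio test, other scalings and filters, and left-out libraries.

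The members, lists, comparisons and alternatives were chosen with earlier results of these data known. Outside the members, the text names list genes called or among the 3 with the smallest p between numbers, and the 5 nearest profiles. LDOX, MYB11, MYB114, FLS2 to FLS6, PYK10 and SESA3 were named after their values were seen.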

Additional observations from a re-analysis of the deposited data

Results flagged for a closer look

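CHS and UGT78D2 went opposite ways between the genotypes in the pairs of libraries that share a number. The otp90 to Col-0 ratio of CHS was 2.30 in number 1 and 0.623 in number 2, and that of UGT78D2 was 1.55 in number 1 and 0.717 in number 2, each with a 95% counting interval on one side of 1. For CHS the intervals stayed on opposite sides with rRNA genes kept in the totals, with nuclear totals and with TMM-scaled totals. For UGT78D2 the number 2 interval held 1 with nuclear totals (0.567 to 1.02) and with TMM-scaled totals (0.565 to 1.02). Each ratio rests on 1 library per side, and the difference between the numbers was not tested.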

How the results depend on the processing

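Between genotypes, 0 genes were called under every scaling, filter and tool tried and with the replicate block, and 0 to 33 with 1 library left out. Between numbers, 96 genes were called, and 68 by limma voom, 73 scaled on nuclear genes, 176 with library totals only, 214 without the low-count filter, 253 by the likelihood ratio test and 178 (otp90 replicate 2), 203 (Col-0 replicate 2), 209 (Col-0 replicate 1) and 511 (otp90 replicate 1) with that library left out and no genotype term. Library totals alone moved the median of all genes to 0.19 between numbers and to -0.12 between genotypes. Every tested member stayed positive between numbers in all 13 alternatives, which refit the same libraries. The filter favoured a positive value for FLS1, CHIL, F3H and MYB111. With no filter all 10 members were positive, against a median of -0.03 over all 28766 genes, though TT7 went from 5 to 3 counts in Col-0. With 1 library left out, the values between numbers ranged from 2.77 to 3.15 for FLS1, 1.80 to 3.16 for CHS, 1.75 to 4.59 for CHIL, 1.06 to 4.14 for F3H, 1.27 to 3.86 for MYB111 and 0.55 to 1.33 for UGT78D2. The lowest came without Col-0 replicate 1, except for FLS1 (without otp90 replicate 1) and MYB111 (without otp90 replicate 2), and the highest without otp90 replicate 1, except for FLS1 (without Col-0 replicate 1). HY5 ranged from 1.10 to 3.80 and MYB4 from 1.17 to 3.54. TTG1 turned to 0.082 without otp90 replicate 2.

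Between genotypes, UGT78D2 turned negative with library totals only (-0.11), and CHS (0.39) and FLS1 (0.046) turned positive by limma voom. With 1 library left out CHS ranged from -1.16 to 2.29, FLS1 from -2.36 to 1.89, CHIL from -0.30 to 4.26, F3H from -0.071 to 3.84 and UGT78D2 from -0.53 to 0.97. The otp90 minus Col-0 difference in the summed share was -9.07 per 1000000, 12.6 with nuclear totals and -194 to 176 with 1 library left out. The cause was not tested. With the number as a replicate block, 0 genes were called, with 257 at an unadjusted p under 0.05, and CHS was at 0.32. Same-numbered libraries had deviations from their genotype means that correlated across genes at r = 0.22, but the labels do not say that the number pairs samples. An interaction of genotype and number could not be fitted with 1 library in each combination. Depth limits TT5, TT7, DFR and MYB12, with 8 to 27 counts in all.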
